A study of Caenorhabditis elegans with 9 samples.

Results

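Messenger RNA of 5 genes, clec-3, clec-73, clec-74, clec-143 and F01D5.2, was followed in starved first-stage larvae (L1) of the nematode Caenorhabditis elegans. The members were picked by gene symbol because they read much higher in ogt-1 mutant larvae, and little higher in oga-1 mutant larvae, than in wild type. The values that picked them are therefore given as a description, with no test. The 5 genes were read by 5 probe sets, 1 each, of 22548 probe sets tested, or 5 of 17118 genes with a probe set of their own. A further 2 probe sets carry a member beside another symbol and were counted for neither gene.

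The study compared 3 strains with 3 arrays each, all from larvae that hatched into sterile buffer without food and were collected after 48 h. One strain is ogt-1(ok430), mutant for the O-GlcNAc transferase, which attaches the sugar O-GlcNAc to proteins of the nucleus and cytoplasm. Another is oga-1(ok1207), mutant for the O-GlcNAcase, which removes that sugar, and the third is wild type. Each mutant strain carries 1 allele, so a strain and its allele cannot be told apart, and RNA came from whole larvae, so more cells of a type and more RNA per cell cannot be told apart either.

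C-type lectins are proteins with a carbohydrate-recognition fold that binds sugars in many animals, in some cases with calcium. Nematodes have a very large family of such genes, the clec genes, many of which encode secreted proteins. Several are made in the intestine and change with exposure to bacterial pathogens, and clec genes serve as readouts of innate immune pathways. The function of most single members is not known, and the symbol F01D5.2 is a clone-based name that carries no function.

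Array values are log2 numbers and are compared here between strains for 1 probe set at a time, never between probe sets. Array means lay at 7.36 on all 9 arrays and medians between 6.80 and 6.87. The 5 control probe sets for yeast genes had strain means of 4.41 to 6.26, and a probe set at or below 6.26 was taken as not shown to be above background. This held in every strain for 36.6% of the probe sets. The brighter of the 2 ogt-1 probe sets had means of 11.36 on ogt-1, 11.16 on oga-1 and 11.58 on wild type arrays (adjusted p = 0.581 for ogt-1 with wild type, limma). The dimmer one fell by 0.61 on the ogt-1 arrays (adjusted p = 0.0124). The brightest oga-1 probe set did not pass between oga-1 and wild type (difference -0.02, adjusted p = 0.986, limma), so strains are named by their labels.

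All of the 5 genes read high on each ogt-1 array and low on each oga-1 and wild type array. The gene clec-3 read 11.51, 11.32 and 11.52 on ogt-1 arrays 1 to 3. On the oga-1 arrays it read 6.18, 5.87 and 6.17, and on the wild type arrays 5.42, 5.58 and 5.72. The lowest ogt-1 array thus lay 5.6 above the highest wild type array and 5.14 above the highest oga-1 array. The mean was 11.45 ± 0.11 in ogt-1, 6.07 ± 0.18 in oga-1 and 5.57 ± 0.15 in wild type larvae (log2, SD, n = 3 each). The difference of ogt-1 from wild type was 5.87, the largest positive difference of the 17118 genes. With the wild type mean below that of the yeast controls, the fold is a lower bound, taken against 6.26 (a limit chosen after the data were seen): clec-3 was at least 36.4-fold higher in ogt-1 than in wild type larvae, and at least 36.4-fold higher than in oga-1 larvae.

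The neighbouring lectin genes clec-73 and clec-74 lie side by side on chromosome IV in assembly WBcel235. The gene clec-73 read 7.39, 7.58 and 7.52 on ogt-1 arrays, 4.73, 4.74 and 4.82 on oga-1 arrays, and 4.69, 4.80 and 4.74 on wild type arrays. The oga-1 and wild type values overlapped, at a level not shown to be above background. The ogt-1 minus wild type difference was 2.76 and the bound at least 2.36-fold. The probe set of clec-73 has a name ending in _s_at, which the array maker gives to probe sets that match more than one transcript. The gene clec-74 read 8.90, 9.44 and 9.13 on ogt-1 arrays, 6.37, 6.82 and 6.09 on oga-1 arrays, and 6.17, 6.28 and 5.96 on wild type arrays. Here too all ogt-1 arrays lay above the others, and oga-1 overlapped with wild type. Its difference was 3.02, or at least 7.41-fold.

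The lectin gene clec-143, on chromosome II, read 9.24, 9.43 and 9.66 on ogt-1 arrays, 6.82, 6.61 and 6.98 on oga-1 arrays, and 6.59, 6.32 and 6.77 on wild type arrays. It was the only one of the 5 whose mean lay above 6.26 in every strain, so that its fold is not a bound. It was 7.38-fold higher in ogt-1 than in wild type larvae (log2 difference 2.88) and 6.23-fold higher than in oga-1 larvae. The gene F01D5.2, also on chromosome II, read 9.05, 9.18 and 9.62 on ogt-1 arrays, 6.30, 6.62 and 6.53 on oga-1 arrays, and 5.84, 6.05 and 6.29 on wild type arrays. All ogt-1 arrays were higher than the rest, and the lowest oga-1 array stood 0.01 above the highest wild type array. The ogt-1 minus wild type difference was 3.23, or at least 8.08-fold, and F01D5.2 was 6.95-fold higher in ogt-1 than in oga-1 larvae.

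**Figure D1:**
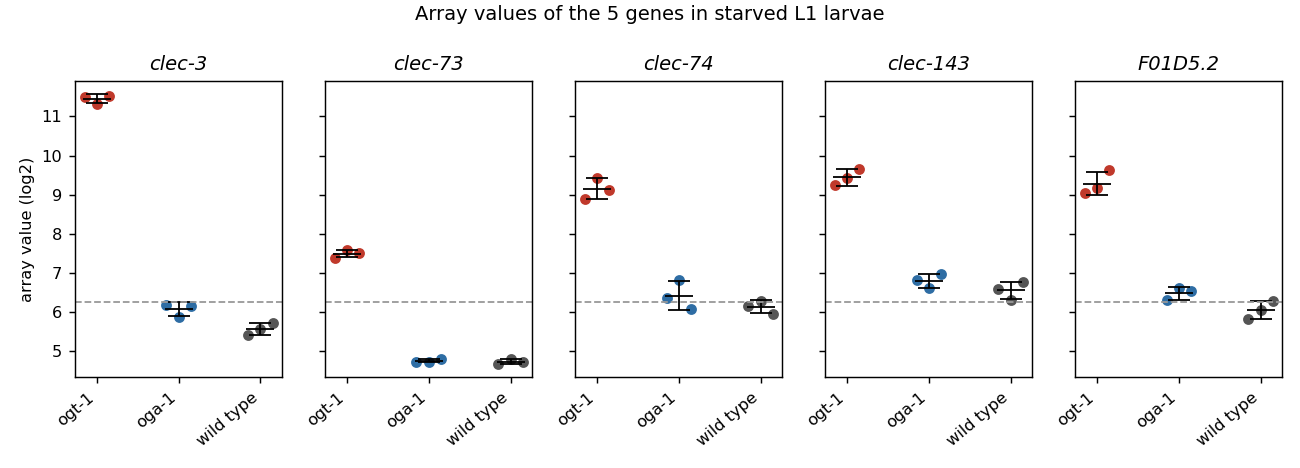
Array values (log2, vertical axis) of the 5 genes on the ogt-1, oga-1 and wild type arrays. Points are single arrays, bars the mean and SD (n = 3), and the dashed line is the highest strain mean of the yeast controls (6.26). The ogt-1 points stand above all others in each panel, with clec-3 at 11.32 to 11.52.

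Between oga-1 and wild type arrays the difference of means was 0.50 for clec-3, 0.43 for F01D5.2, 0.29 for clec-74, 0.24 for clec-143 and 0.02 for clec-73 (log2). These are 8.5%, 13.3%, 9.56%, 8.49% and 0.810% of each gene's ogt-1 minus wild type difference. For clec-3 and F01D5.2 all 3 oga-1 arrays lay above all 3 wild type arrays, as for 8.54% of all genes, and for the other members the strains overlapped. Same-numbered arrays of these 2 strains were treated as pairs because their deviations correlated (0.36 to 0.48 over probe sets). The labels name no pairing. Within pairs oga-1 lay above wild type in all 3 pairs for 4 of the 5 genes. The share of all genes for which this holds was not worked out, so the count is a description only. The paired differences were 0.75, 0.29 and 0.45 for clec-3, 0.47, 0.57 and 0.24 for F01D5.2, 0.20, 0.53 and 0.13 for clec-74, and 0.23, 0.29 and 0.21 for clec-143. For clec-73 they were 0.05, -0.05 and 0.08, of either sign. Single arrays weighed on the smaller means: clec-74 gave 0.09 without oga-1 replicate 2 and 0.46 without oga-1 replicate 3, and clec-143 gave 0.16 without oga-1 replicate 3 and 0.13 without wild type replicate 2. For clec-73 the range was -0.0046 (without wild type replicate 1) to 0.05 (without wild type replicate 2), with a difference below 0 also without oga-1 replicate 3, and 0.04 without oga-1 replicate 1. The percentages above move with these values. All 3 ogt-1 arrays lay above all 3 wild type arrays for each of the 5 genes, as for 11.9% of all genes, and above all 3 oga-1 arrays, as for 5.13% of all genes. Nothing is read from these counts, since the members were picked on them. Both mutants are set against the same 3 wild type arrays. With wild type and oga-1 values at or below 6.26 raised to that level, the oga-1 difference was 0 for clec-3 and clec-73, so these differences lie in a range where the array does not show a signal above background.

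Within a strain, single arrays of the 5 genes lay between -0.34 and 0.39 (log2) from their strain mean. On ogt-1 replicate 3, 4 of the 5 genes lay above their strain mean, and on ogt-1 replicate 1, 1 of 5 did. The widest SD was that of F01D5.2 in ogt-1 (0.30) and wild type larvae (0.23), and that of clec-74 in oga-1 larvae (0.37). The narrowest was that of clec-73 in each strain, with 0.10 in ogt-1, 0.05 in oga-1 and 0.05 in wild type larvae. Summed levels of tissue markers are given as ranges per strain, with no test of the sums. The 13 measured intestinal markers were all above 6.26 in every strain, mtl-2 passed as higher in both ogt-1 and oga-1 than in wild type, cpr-1 passed as lower in ogt-1 than in oga-1, and their summed linear level was 51502 to 55304 on ogt-1, 51028 to 55289 on oga-1 and 50307 to 51603 on wild type arrays. The summed level of 10 body wall muscle markers was 45366 to 47070 on ogt-1, 44766 to 49808 on oga-1 and 34352 to 42515 on wild type arrays. Of these, unc-54 passed as higher in both mutants and myo-3 as higher in oga-1. That of 7 pharyngeal markers, none of which passed, was 13857 to 16489 on ogt-1, 14205 to 16376 on oga-1 and 17333 to 19673 on wild type arrays. That of 8 germline markers was 1474 to 1567 on ogt-1, 1813 to 1918 on oga-1 and 1717 to 1925 on wild type arrays, with glh-1 lower in ogt-1 than in wild type, so this sum was lower on the ogt-1 arrays than on all others. That of 3 coelomocyte markers, none of which passed, was 666 to 701 on ogt-1, 560 to 805 on oga-1 and 787 to 974 on wild type arrays. Among 11 hypodermal markers grd-10 passed as lower in ogt-1 than in wild type, the sum being 5046 to 6521 on ogt-1, 4916 to 7971 on oga-1 and 5366 to 6184 on wild type arrays. The sum of 10 neuronal markers was 37633 to 38705 on ogt-1, 36997 to 41315 on oga-1 and 39269 to 39846 on wild type arrays. None of these 10 passed, and 9 were above 6.26 in every strain. All 10 muscle, 7 pharyngeal and 3 coelomocyte markers, 7 of 8 germline markers (not nos-2) and 7 of 11 hypodermal markers were above 6.26 in every strain, with dpy-7, rol-6 and wrt-10 at or below it in all. The part of tissue composition in the lectin values was not tested. Of 9 markers of adult yolk and sperm, vit-1, vit-2, vit-5 and spe-11 were at or below 6.26 in every strain.

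Ranked by ogt-1 minus wild type, the 5 genes stood at places 1, 3, 4, 5 and 7 of 17118, a description only, since these differences picked the members. For 4 of them the place rests on a wild type mean at or below 6.26, and with values raised to that level the difference of clec-73 was 1.24. The genes between them were dod-24, a gene downstream of the FOXO factor DAF-16, in place 2 (4.49) and the glutathione S-transferase gene gst-12 in place 6 (2.78). Just below clec-73 came gst-30 (2.68), gst-38 (2.65) and C17H12.8 (2.60). By oga-1 minus wild type the members held places 371 (clec-3), 522 (F01D5.2), 1180 (clec-74), 1592 (clec-143) and 7900 (clec-73). The genes ranked among them were not all alike in this respect. The oga-1 minus wild type difference was 0.99 for dod-24 (adjusted p = 0.0128, limma, and up to 0.0660 without oga-1 replicate 1 or wild type replicate 2), -0.13 for gst-12, -0.57 for gst-30, 1.15 for gst-38 and 3.35 for C17H12.8. Ranked by ogt-1 minus oga-1, the members took places 1 (clec-3), 5 (F01D5.2), 6 (clec-73), 7 (clec-74) and 10 (clec-143).

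**Figure D2:**
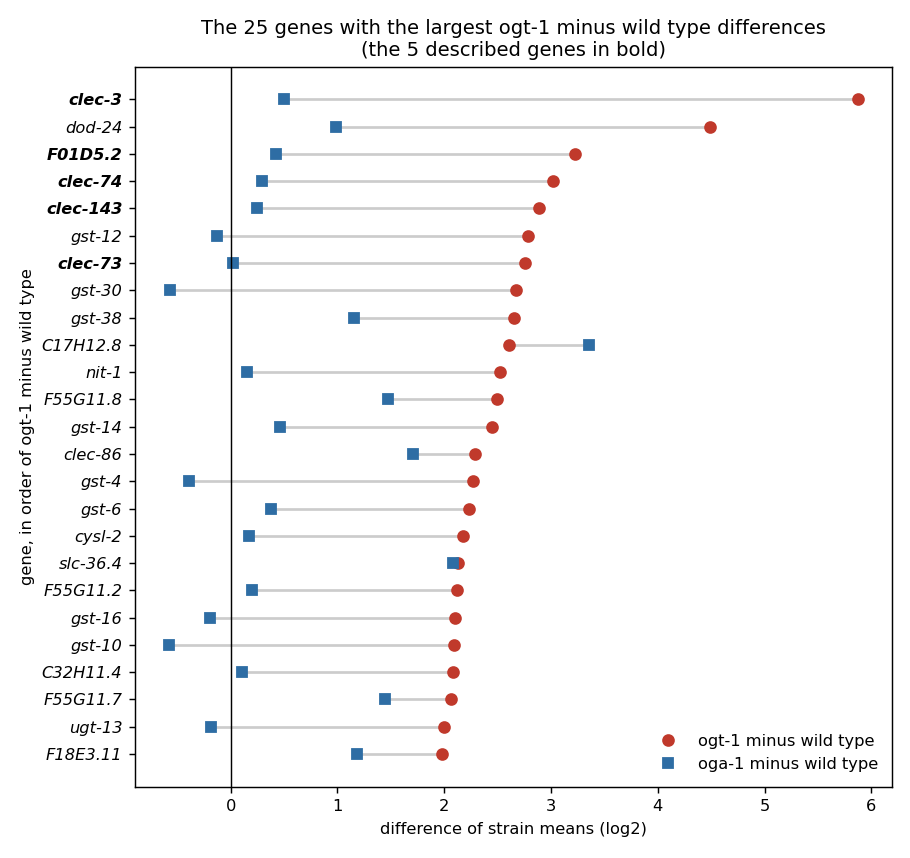
The 25 genes with the largest ogt-1 minus wild type differences (log2, horizontal axis, circles), each with its oga-1 minus wild type difference (squares). The 5 described genes, in bold, have squares between 0.02 and 0.50, while the squares of other genes lie between -0.57 (gst-10 and gst-30) and 3.35 (C17H12.8).

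A scaled profile was used to find genes of the same shape: each profile was centred on its wild type mean and divided by its ogt-1 minus wild type difference. Of 89 other probe sets with a difference of at least 1, 30 had an oga-1 difference within 0.2 of 0 on this scale. The median oga-1 share of the 89 was 39.9%. The distance to the members' mean profile (root mean square over 9 arrays) was 0.032 for clec-3, 0.046 for clec-73, 0.049 for clec-143, 0.051 for F01D5.2 and 0.072 for clec-74, with a median of 0.275 for the other probe sets. The 8 nearest other genes were H20E11.3 (0.048), Y105C5B.15 (0.054), the aspartyl protease gene asp-14 (0.067), shc-1, a gene for an adaptor protein of the Shc family (0.080), F39B2.3 (0.081), F55G11.2 (0.082), T19D12.3 (0.084) and gst-14 (0.090). Their ogt-1 minus wild type differences ran between 1.39 (F39B2.3) and 2.44 (gst-14). One at a time, clec-3 was nearest to clec-143 (0.052), F01D5.2 to clec-3 (0.065), clec-73 and clec-143 to H20E11.3 (0.049 and 0.048), and clec-74 to Y105C5B.15 (0.074). Each member is itself part of the mean profile it was measured against, and the members were picked for a shape of this kind. Nothing is therefore read from their distances being below the median of the other probe sets. The gene H20E11.3, which is no part of that mean, lay nearer to it than clec-143, F01D5.2 and clec-74. All 9 arrays are shared by the genes compared, so these distances describe shape and carry no test.

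**Figure D3:**
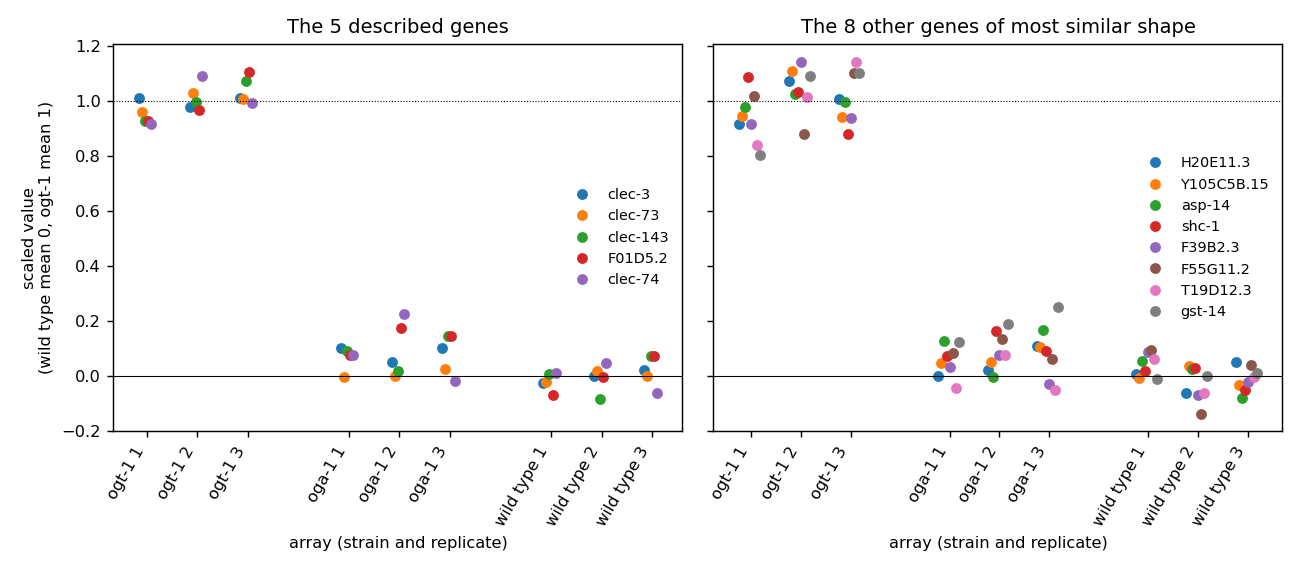
Scaled values (vertical axis, wild type mean 0 and ogt-1 mean 1) on each of the 9 arrays for the 5 described genes (left) and the 8 other genes of most similar shape (right). The points of the oga-1 arrays lie near those of the wild type arrays, and clec-74 has the widest scatter among the described genes, with a distance of 0.072 from their mean.

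Since neighbours of the members in the genome were not used to pick them, their changes were tested. The 5 nearest measured genes on each side of each member gave 40 genes, 11 of them C-type lectins. Between ogt-1 and wild type, 6 of 40 rose and none fell, against 1.94% higher and 2.38% lower among all genes (limma, adjusted p under 0.05). Their median difference was 0.11, against 0.00 for all genes. Of the 40, 11 had an unadjusted p under 0.05. Between oga-1 and wild type 3 rose and none fell (0.8% and 1.31% of all genes), with 9 at an unadjusted p under 0.05, in a fit that leaves out the pairing of these arrays. Between ogt-1 and oga-1 2 were higher in ogt-1 and none was lower (0.38% and 0.152% of all genes), with 6 at an unadjusted p under 0.05.

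Around F01D5.2, 3 genes named for the same clone rose in ogt-1 against wild type. The gene just before it, F01D5.1, read 11.93, 12.03 and 12.44 on ogt-1 arrays, 11.83, 11.27 and 11.89 on oga-1 arrays, and 11.23, 11.13 and 11.27 on wild type arrays. Its change was 0.93 ± 0.17 (SE, n = 3, adjusted p = 0.0120, limma), or 1.90-fold, and leaving out ogt-1 replicate 3 ended the call (adjusted p = 0.0608, with 0.00299 to 0.0608 over the alternatives). The probe set of F01D5.1 also has a name ending in _s_at, and whether other RNA adds to its signal was not tested. The gene just after F01D5.2, F01D5.3, read 6.30, 6.81 and 6.61 on ogt-1 arrays, 5.53, 5.54 and 5.27 on oga-1 arrays, and 5.6, 5.66 and 5.45 on wild type arrays. All of its ogt-1 arrays lay above the level of the yeast controls and all others below it. It rose by 1.01 ± 0.14 against wild type (adjusted p = 0.00202, 0.000547 to 0.0135 over the alternatives, limma), at least 1.24-fold, and was higher by 1.13 ± 0.14 than in oga-1 (adjusted p = 0.00154, 0.000288 to 0.0139). The annotated spans of F01D5.2 and F01D5.3 overlap, and whether RNA of one is read by the probes of the other was not tested.

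The gene F01D5.5, next in line, read 11.41, 11.53 and 11.51 on ogt-1 arrays, 10.88, 10.83 and 11.22 on oga-1 arrays, and 10.50, 10.49 and 10.93 on wild type arrays. It rose 1.79-fold in ogt-1 (0.84 ± 0.14, adjusted p = 0.00728, 0.00222 to 0.0452 over the alternatives, limma). The oga-1 differences of F01D5.1 (0.45, adjusted p = 0.243), F01D5.3 (-0.12, adjusted p = 0.811) and F01D5.5 (0.34, adjusted p = 0.305) did not pass in the fit without pairing. Between ogt-1 and oga-1 F01D5.1 (0.47, adjusted p = 0.681) and F01D5.5 (0.50, adjusted p = 0.368) did not pass either. Of the 8 other genes named for the clone F01D5, these 3 rose in ogt-1 (37.5%, against 1.94% of all genes). The other 5 did not pass, from -0.26 (cyp-37A1, a cytochrome P450 gene) to 0.29 (F01D5.8). The 3 that rose are also among the neighbours counted above, so they are not a second result. The list of clone genes was chosen with earlier results of these data known, so nothing is read from its share.

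The gene next to clec-3, clec-2, read 5.61, 5.43 and 5.49 on ogt-1 arrays, 4.93, 5.06 and 4.89 on oga-1 arrays, and 4.88, 5.06 and 4.92 on wild type arrays. All 9 values are below the level of the yeast controls, so no fold is given, but the ogt-1 arrays lay above all others. The difference of the ogt-1 mean from wild type was 0.56 ± 0.10 (adjusted p = 0.0104, 0.00224 to 0.0468 over the alternatives, limma). The difference from oga-1 was 0.55 (adjusted p = 0.0373, limma), a call lost under 8 of 15 alternatives (adjusted p up to 0.213), among them each left-out ogt-1 array. A probe set annotated to both clec-2 and clec-3 averaged 10.19 ± 0.22 on ogt-1, 5.89 ± 0.03 on oga-1 and 5.56 ± 0.24 on wild type arrays (SD, n = 3 each), with no overlap between ogt-1 and the rest. Whether clec-3 RNA adds to the clec-2 probe set was not tested. On the other side, C41H7.2, whose annotated span overlaps that of clec-3, differed by -0.20 (adjusted p = 0.416). Also near clec-3, lido-10 rose in ogt-1 (0.76 ± 0.13, adjusted p = 0.00728) and in oga-1 (0.67 ± 0.13, adjusted p = 0.0256, limma, lost under 5 of 17 alternatives, up to 0.0826, including without oga-1 replicate 1 or 2 or wild type replicate 1 or 3).

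The pair clec-73 and clec-74 sits in a run of lectin genes, of which clec-76 rose in ogt-1 and 7 others did not pass. The nearest on either side, clec-72 (-0.45, adjusted p = 0.116) and clec-75 (-0.41, adjusted p = 0.170), did not pass between ogt-1 and wild type. The gene clec-76 rose in both mutants, by 1.01 ± 0.12 in ogt-1 (adjusted p = 0.000924) and by 0.81 ± 0.12 in oga-1 (adjusted p = 0.00904, limma). The gene clec-174 read 6.94, 7.65 and 7.15 on ogt-1, 8.55, 8.25 and 7.46 on oga-1, and 6.48, 6.48 and 6.52 on wild type arrays. It rose in oga-1 (1.59 ± 0.24, adjusted p = 0.00904) and did not pass in ogt-1 (0.75, adjusted p = 0.121). The name of its probe set ends in _x_at, which also marks a shared probe set, and whether other RNA adds to its signal was not tested. A probe set annotated to both clec-73 and clec-79 read 8.82, 8.56 and 8.59 on ogt-1, 6.04, 6.21 and 5.85 on oga-1, and 5.64, 5.62 and 5.41 on wild type arrays, while the clec-79 probe set differed by 0.16 (adjusted p = 0.593, limma). Around clec-143 none of the 10 neighbours passed. Its nearest neighbours were tnc-2, a troponin C gene whose annotated span overlaps that of clec-143 (-0.08, adjusted p = 0.880), and ZK666.1 (0.04, adjusted p = 0.939).

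**Figure D4:**
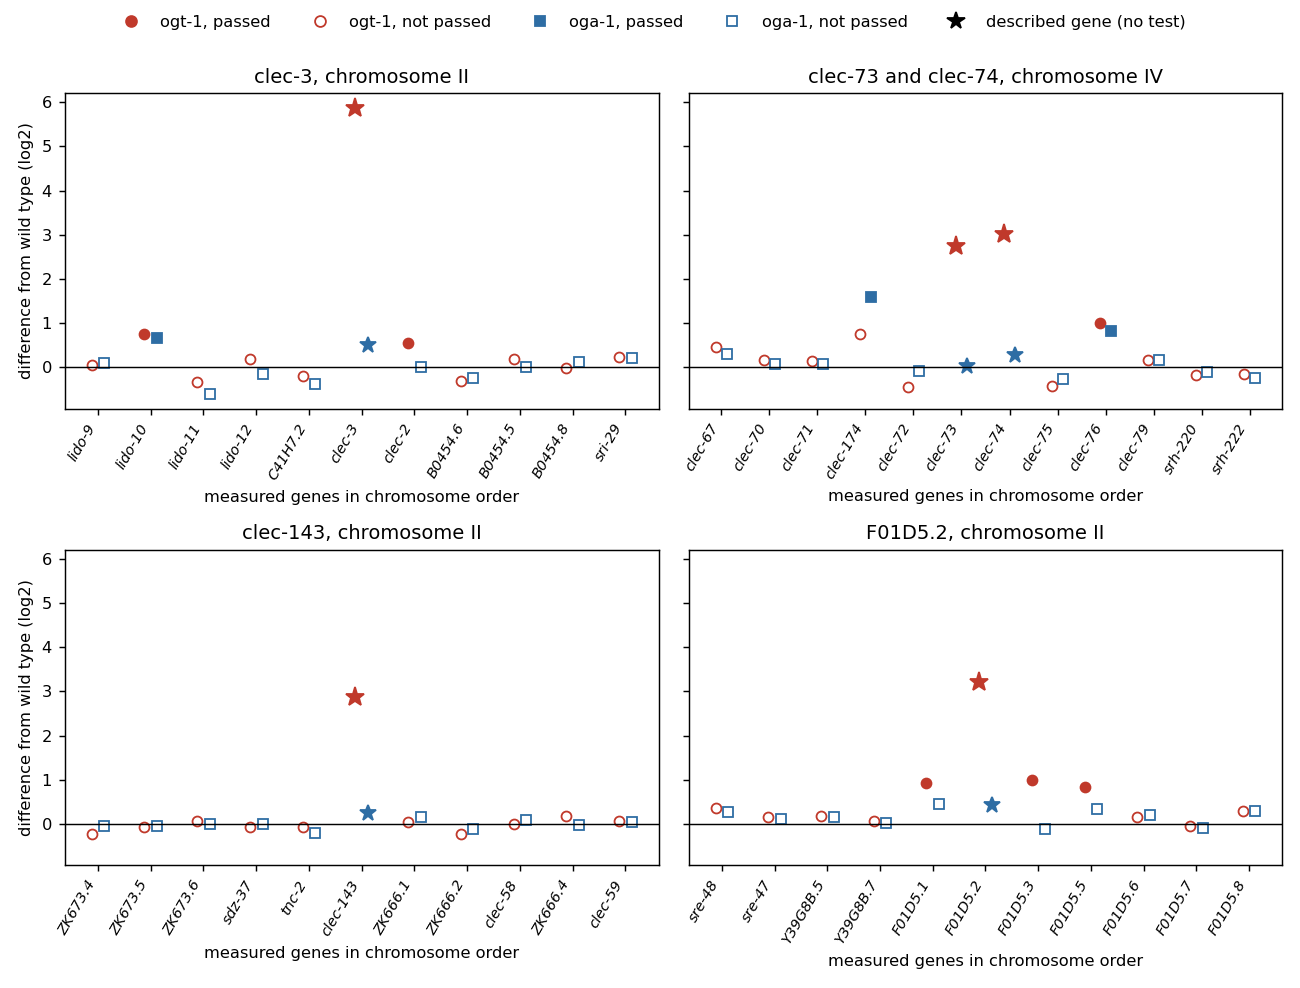
Differences from wild type (log2, vertical axis) of the described genes (stars) and of the 5 nearest measured genes on each side in chromosome order, for ogt-1 (circles) and oga-1 (squares), filled where the adjusted p was under 0.05. Near F01D5.2 the genes F01D5.1, F01D5.3 and F01D5.5 passed in ogt-1 (0.84 to 1.01), and around clec-143 no gene passed.

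The other lectin genes were read for comparison. Of 216 other C-type lectin genes, 9 rose and 12 fell in ogt-1 against wild type (4.17% higher and 5.56% lower, against 1.94% and 2.38% of all genes), and 195 did not pass. The counts were 8 higher and 3 lower without ogt-1 replicate 2, and 8 higher and 4 lower without ogt-1 replicate 3. In 151 of the 216 no strain mean lay above 6.26, and the median difference was -0.03, against 0.00 for all genes. Among the 65 with a strain mean above 6.26, 7 rose and 8 fell, so the remaining calls lie at a level not shown to be above background. The largest rise among the 216 was that of clec-86 (2.29 ± 0.15, adjusted p = 6.57e-06). It was followed by clec-66 (1.84 ± 0.15, adjusted p = 4.30e-05) and clec-76. Also among the smallest p-values were clec-265 (0.89 ± 0.12, adjusted p = 0.00206) and clec-17 (0.80 ± 0.09, adjusted p = 0.000469, limma), and clec-37 fell by 0.77 (adjusted p = 0.00271).

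Between oga-1 and wild type 7 of the 216 rose and 5 fell (3.24% and 2.31%, against 0.8% and 1.31% of all genes), and with the replicate number as a block on these 2 strains alone 9 rose and 11 fell. The 12 calls dropped to 6 without oga-1 replicate 1, to 7 without oga-1 replicate 2 and to 6 without wild type replicate 1. The rise of clec-86 in oga-1 was 1.71 ± 0.15 (adjusted p = 0.000230, limma), and clec-86 did not differ past the threshold between the mutants (0.58, adjusted p = 0.262). Between ogt-1 and oga-1 3 of the 216 passed, all higher in ogt-1 (1.39%, against 0.38% of all genes), with 16 at an unadjusted p under 0.05. These were clec-17 (0.73 ± 0.09, adjusted p = 0.00174), clec-66 (1.09 ± 0.15, adjusted p = 0.00542) and clec-2. The gene clec-17 averaged 13.72 ± 0.06 on ogt-1, 12.99 ± 0.01 on oga-1 and 12.91 ± 0.03 on wild type arrays (log2, SD, n = 3 each). It was 1.74-fold higher in ogt-1 than in wild type larvae.

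**Figure D5:**
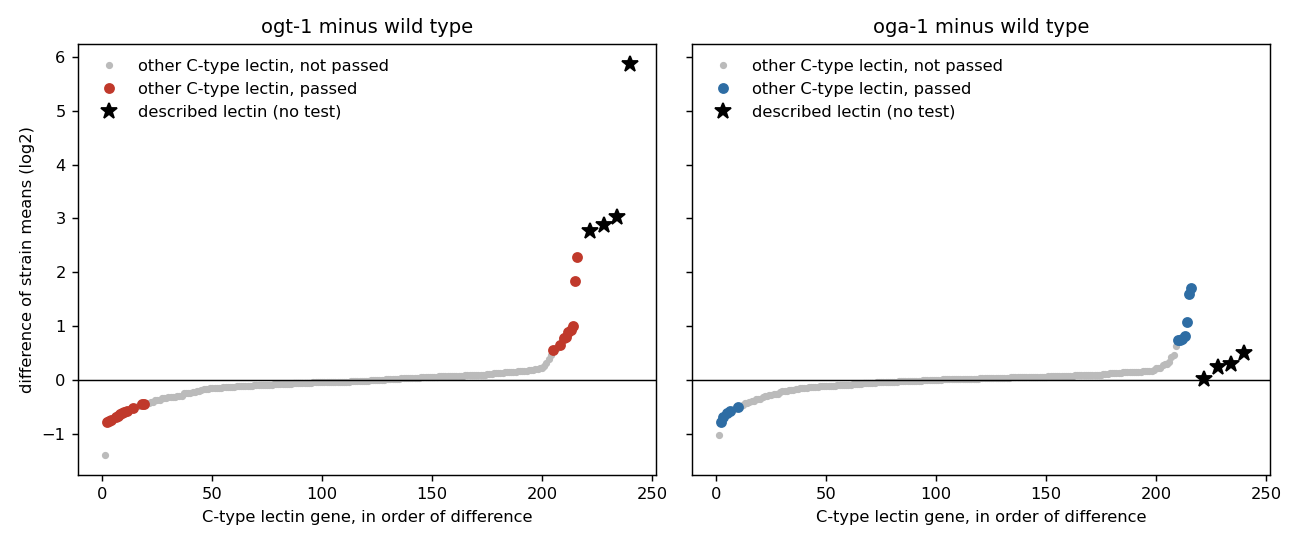
Differences of strain means (log2, vertical axis) of 216 other C-type lectin genes in order of size, for ogt-1 minus wild type (left) and oga-1 minus wild type (right), coloured where the adjusted p was under 0.05. Stars are the 4 described lectins, drawn to the right of the others, at 2.76 to 5.87 in ogt-1 and 0.02 to 0.50 in oga-1.

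Genes known from responses to bacteria and other pathogens were read as well, from a list of 42 names with 35 measured genes. The list was chosen with earlier results of these data known. Nothing is therefore read from its shares against those of all genes. In ogt-1 against wild type 9 rose, none fell and 26 did not pass (25.7% higher, against 1.94% higher and 2.38% lower among all genes), with a median of 0.07 and 19 at an unadjusted p under 0.05. The smallest p-values belonged to dod-24, C17H12.8 (2.60 ± 0.14, adjusted p = 1.73e-06), dod-22 (1.49 ± 0.13, adjusted p = 5.10e-05), dod-17 (1.94 ± 0.22, adjusted p = 0.000482), the lysozyme gene lys-2 (0.94 ± 0.16, adjusted p = 0.00728) and irg-3, named for infection response (1.19 ± 0.20, adjusted p = 0.00728, limma). In oga-1 against wild type 7 rose and none fell in the fit without pairing (20% higher, against 0.8% higher and 1.31% lower among all genes). Between ogt-1 and oga-1 dod-24 (3.50 ± 0.16, adjusted p = 3.63e-07) and dod-17 (2.37 ± 0.22, adjusted p = 0.000127) were higher in ogt-1. There sysm-1, a readout of the p38 MAP kinase pathway, was lower in ogt-1 (-1.54, adjusted p = 0.00599), as were lys-3 (-0.65, adjusted p = 0.0469) and C17H12.8 (-0.75, adjusted p = 0.0480, limma). These are 5.71% of the list higher and 8.57% lower in ogt-1, against 0.38% and 0.152% of all genes. The calls of C17H12.8 and lys-3 were lost under 10 and 11 of 16 alternatives (adjusted p up to 0.253 and 0.266), among them each left-out oga-1 array and, for C17H12.8, each left-out ogt-1 array. A dimmer probe set of C17H12.8, with a name ending in _s_at, was lower in ogt-1 by a larger difference (-1.05, adjusted p = 0.00321, limma). Against wild type, sysm-1 was higher in both mutants, by 1.07 in ogt-1 (adjusted p = 0.0213) and 2.61 in oga-1 (adjusted p = 0.000160, limma). Its rise in ogt-1 passed under 12 of 16 alternatives (adjusted p up to 0.0868).

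Genes that act in immune signalling were read from a list of their own. Of 30 measured immune signalling genes, among them the p38 kinase cascade genes, trf-1, an adaptor gene of Toll signalling, fell in ogt-1 (-0.45, adjusted p = 0.0454, limma), a call lost under 10 of 16 alternatives (adjusted p up to 0.196), among them each left-out ogt-1 and wild type array. This is 3.33% of the list lower, against 2.38% of all genes. The other 29 did not pass, with a median of 0.03 and 3 at an unadjusted p under 0.05. Between oga-1 and wild type 0 of 30 passed with limma, with 3 at an unadjusted p under 0.05, in a fit that leaves out the pairing of these arrays. Between ogt-1 and oga-1 0 passed, with 0 at an unadjusted p under 0.05.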

How the data were processed

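The authors deposited log2 probe set values of 9 Affymetrix C. elegans arrays, each labelled a biological replicate, made from 4 ug of total RNA per the labels' protocols. MAS5, RMA and Partek appear in the submitters' processing notes with no role or version (the one behind the values: not given in the sources used here). From these values, 77 control probe sets were left out and strains compared with limma 3.58.1 in R 4.3.3 (a mean per strain, all 9 arrays, empirical Bayes, Benjamini-Hochberg adjustment over 22548 probe sets per contrast, threshold 0.05). The fit was tested on simulated data.

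GEO's platform annotation gave 1 symbol to 20766 probe sets, several to 887 and none to 895. Of the 1-symbol probe sets the brightest stood for its gene, and gene order came from the RefSeq table of WBcel235. Members and lists were chosen with earlier results of these data known. Named genes are the members, neighbours that passed or lay nearest, the 8 most similar profiles, up to 6 per list by smallest p, and the genes ranked among the members. Naming by protein identity was not run, and clec-79, F01D5.8, cyp-37A1, F55G11.7, F55G11.8, nit-1 and cysl-2 were named after their values were seen. Deviations of same-numbered wild type and oga-1 arrays correlated at 0.36 to 0.48 over probe sets. These 2 strains were therefore treated as paired, though the labels name no pairing. The main fit leaves this pairing out: 436 probe sets passed in it between oga-1 and wild type. With the replicate number as a block on these 2 strains alone, 1316 passed. An oga-1 difference from wild type that did not pass is therefore not shown to be absent. Same-numbered arrays of the other strain pairs correlated at -0.10 to 0.11 and were not treated as pairs. Nothing in the labels gives a batch, and the number of arrays limits the precision.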

Additional observations from a re-analysis of the deposited data

Results flagged for a closer look

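Both probe sets that carry a described gene beside another symbol stood out on the ogt-1 arrays, although they were counted for no gene. The probe set of clec-2 and clec-3 was higher by 4.62 (log2) in ogt-1 than in wild type larvae, and that of clec-73 and clec-79 by 3.10. In both, all 3 ogt-1 arrays lay above all 3 wild type arrays. The share of each gene in these signals was not tested.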

How the results depend on the processing

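The ogt-1 minus wild type differences of the 5 described genes held their size under quantile normalization and median centring. Median centring could move them little, since array medians lay between 6.80 and 6.87. The replicate block leaves differences of strain means unchanged by construction, since each strain has the same replicate numbers. With any 1 array left out, ogt-1 minus wild type was 5.8 to 5.95 for clec-3, 2.72 to 2.81 for clec-73, 2.88 to 3.15 for clec-74, 2.77 to 2.99 for clec-143 and 3.06 to 3.34 for F01D5.2. Relative to their size, the oga-1 minus wild type differences were less stable, though in log2 units their ranges were not wider for every gene. They were 0.42 to 0.60 for clec-3, -0.0046 to 0.05 for clec-73 and 0.09 to 0.46 for clec-74. For clec-143 the range was 0.13 to 0.35, and for F01D5.2 it was 0.32 to 0.54. With values below the yeast control level raised to it, clec-3 gave 5.19 against wild type and 5.19 against oga-1, clec-73 gave 1.24 in both, and oga-1 minus wild type was 0 for clec-3 and 0.22 for F01D5.2. This follows from the construction of that setting.

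Counts of calls depended more on the setting, and the cause was not tested. Between ogt-1 and wild type 882 probe sets passed, and 332 (without ogt-1 replicate 2) to 1186 with 1 array left out. Between oga-1 and wild type 436 passed, 124 (without oga-1 replicate 1) to 624 with 1 array left out, 187 on these 2 strains alone, 749 with the replicate block, and 1316 with both, an alternative chosen after seeing the data. Between ogt-1 and oga-1 116 passed, 76 (without ogt-1 replicate 2) to 197 with 1 array left out, and 176 with the replicate block. Of the other lectins, 21 passed between ogt-1 and wild type, 11 to 25 with 1 array left out. Between oga-1 and wild type 12 lectins passed, 6 to 12 with 1 array left out, 7 on these 2 strains alone and 20 with the replicate block there, and between the mutants 3 passed, 5 under quantile normalization. The 1 call among immune signalling genes became 0 under quantile normalization, median centring and the variance trend, and 0 to 1 with 1 array left out. For genes tested one at a time, a result was counted once per comparison and alternative setting, so 1 gene counts many times. Of these results 910 stayed on the same side of the threshold, 68 lost their call, 8 gained one and 0 changed direction. The 910 include genes that passed in no setting. The level of the array's background limits clec-3, clec-73 and clec-2 most, since detection calls were not used here.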

Other observations

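Genes named for the clone F55G11 differed among themselves in how far they followed the described genes, an observation made after their values were seen. F55G11.2 averaged 8.28 in ogt-1, 6.37 in oga-1 and 6.17 in wild type larvae, so its oga-1 difference was 9.39% of its ogt-1 difference. F55G11.8 averaged 10.63 in ogt-1, 9.61 in oga-1 and 8.13 in wild type larvae, a share of 59.1%, and F55G11.7 averaged 8.56, 7.95 and 6.50 in the same order, a share of 70.1%.

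Among the 25 genes with the largest ogt-1 differences, those outside the lectins and glutathione S-transferases included the nitrilase gene nit-1 (2.52 in ogt-1 and 0.15 in oga-1) and cysl-2, a cysteine synthase family gene (2.18 in ogt-1 and 0.17 in oga-1). Both were higher in ogt-1 than in oga-1 larvae (log2 differences of 2.37 and 2.01).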
